A study of Mus musculus with 5 samples.

Results

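Ccl3, Ccl4, Ccl5, Ccl6 and Ccl9 are 5 secreted CC chemokines, and Ccr1 is a receptor they share. The 6 genes were chosen by symbol out of the 55450 genes counted in each library, and each symbol matched 1 gene. They were followed in dissociated mouse cortex, with 5 single-cell libraries, 1 of a sham operation and 4 of traumatic brain injury (TBI) at days 1, 3, 7 and 14. All 5 libraries carry the genotype C57BL/6J in the labels, the injured ones come from the injury site, and age and the number of mice per library are not given in the sources used here. With 1 library per group there was no replicate and no test. Intervals are 95% and cover counting error only, so each comparison is between libraries.

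Chemokines are small proteins that cells release to draw leukocytes along a gradient. Ccl3 and Ccl4 are quickly induced products of macrophages and microglia, Ccl5 is a classic product of activated T and natural killer (NK) cells and of dendritic cells, and Ccl6 and Ccl9 are rodent chemokines of myeloid cells. Ccr1 is a G protein-coupled receptor of neutrophils, monocytes and macrophages that binds Ccl3, Ccl5 and Ccl9 among others.

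The 5 ligand genes lie within 138906 bases on mouse chromosome 11 (GRCm38, GENCODE mouse release 21), in the order Ccl5, Ccl9, Ccl6, Ccl3 and Ccl4. All 6 members are protein-coding. Ccl5 occupies chr11:83525778-83530518, Ccl9 chr11:83572919-83578636, Ccl6 chr11:83587882-83593087 and Ccl3 chr11:83647844-83649355, all on the minus strand. Ccl4 occupies chr11:83662584-83664683 on the plus strand, 13228 bases past Ccl3. Ccl6 overlaps a non-coding gene of the other strand, E230016K23Rik, and no label or header used here says if the authors counted by strand. Ccr1 lies on chromosome 9, at chr9:123962124-123968692 on the minus strand.

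Upstream sequence from RefSeq (GRCm38.p6) was at hand for 4 of the 6 members, and 3 are shown because the levels below were read beside immediate early genes, whose products include AP-1 and CRE binding factors, and beside NF-kB genes. Each is the 250 bases before the gene start that RefSeq gives, which for Ccl3 lies upstream of the GENCODE start, 5′ to 3′ on the gene's own strand. Capitals mark matches on either strand to a kappaB motif (GGGA and CC with any 4 bases between them), an AP-1 motif (TGANTCA) or a CRE (TGACGTCA).
Ccl3, chr11:83649379-83649628, minus strand: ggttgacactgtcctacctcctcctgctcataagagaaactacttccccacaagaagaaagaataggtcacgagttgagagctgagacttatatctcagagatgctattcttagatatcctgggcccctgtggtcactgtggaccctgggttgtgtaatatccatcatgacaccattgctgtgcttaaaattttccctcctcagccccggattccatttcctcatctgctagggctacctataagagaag
Ccl9, chr11:83578637-83578886, minus strand: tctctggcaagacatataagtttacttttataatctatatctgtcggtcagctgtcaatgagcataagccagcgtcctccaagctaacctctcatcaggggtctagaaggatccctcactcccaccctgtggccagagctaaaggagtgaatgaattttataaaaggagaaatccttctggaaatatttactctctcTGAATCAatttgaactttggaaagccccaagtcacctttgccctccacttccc
Ccr1, chr9:123968693-123968942, minus strand: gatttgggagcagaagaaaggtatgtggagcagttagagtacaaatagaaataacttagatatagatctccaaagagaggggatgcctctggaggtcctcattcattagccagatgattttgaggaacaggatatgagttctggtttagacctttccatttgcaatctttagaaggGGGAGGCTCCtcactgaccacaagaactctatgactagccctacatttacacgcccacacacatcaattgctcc
Ccl9 held 1 AP-1 match and Ccr1 held 1 kappaB match, while Ccl3 held none of the 3 letter strings in this window, nor did the window of Ccl6, which is not printed. Among 32851 mouse upstream windows of the same length, 17.6% held the kappaB string, 6.75% the AP-1 string and 1.55% the CRE string. The matches are a description of letters and do not show a bound site.

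Depth differed between the libraries, with a median of 773 unique molecular identifiers (UMIs) per barcode in sham and 1756, 3256, 6581 and 8558 at days 1, 3, 7 and 14. A UMI tags 1 captured RNA molecule. After filters 9478 to 11825 cells per library were kept and grouped into classes named by marker genes. Microglia-like clusters, monocyte/macrophage-like clusters and clusters that could not be assigned to either were joined as microglia/macrophages, with 4492 cells in sham and 4051, 3874, 5945 and 6057 at days 1, 3, 7 and 14. The 12 microglia markers were all detected in the microglia-like cells of every library. The 14 neutrophil markers summed to between 41465.5 and 171056 CPM (UMIs of the genes per 1e6 UMIs of the class) in neutrophil-like cells and to 148 to 343 CPM in microglia/macrophages. These lists also named the clusters, so the values describe the classes and do not test the names. The 18 monocyte/macrophage markers summed to 1570, 4602, 857 and 3481 CPM in neutrophil-like cells at days 1, 3, 7 and 14. In the clusters assigned to neither microglia nor macrophages they summed to 7153, 3413, 1733 and 2539 CPM. Neutrophil-like cells numbered 4 in sham and 150, 404, 85 and 82 from day 1 to day 14, and T or NK cell-like cells 16 in sham and 32, 143, 357 and 1855. Levels are given for classes of at least 50 cells in a library, so neither class has a sham level. Pairs of libraries shared 27 to 59 barcodes, at most 0.483% of the smaller library.

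Ccl3 and Ccl4 had the highest UMI levels of the members in microglia/macrophages, and from summed UMIs these cells held their highest level of any class in every library. With a mean over cells in place of sums, neutrophil-like cells led for Ccl3 at days 1 and 14 and for Ccl4 at day 14. Both are early chemoattractants for monocytes, T cells and NK cells. Ccl3 stood at 1483 CPM in sham, 2872 at day 1, 3194 at day 3, 990 at day 7 and 553 at day 14. It was highest at day 3 and stood below its sham level at days 7 and 14. Ccl4 stood at 6305 CPM in sham, 11274 at day 1, 6652 at day 3, 2121 at day 7 and 1081 at day 14. Its highest level came at day 1, before that of Ccl3, and its day 3 level in these joined cells was close to sham.

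**Figure D1:**
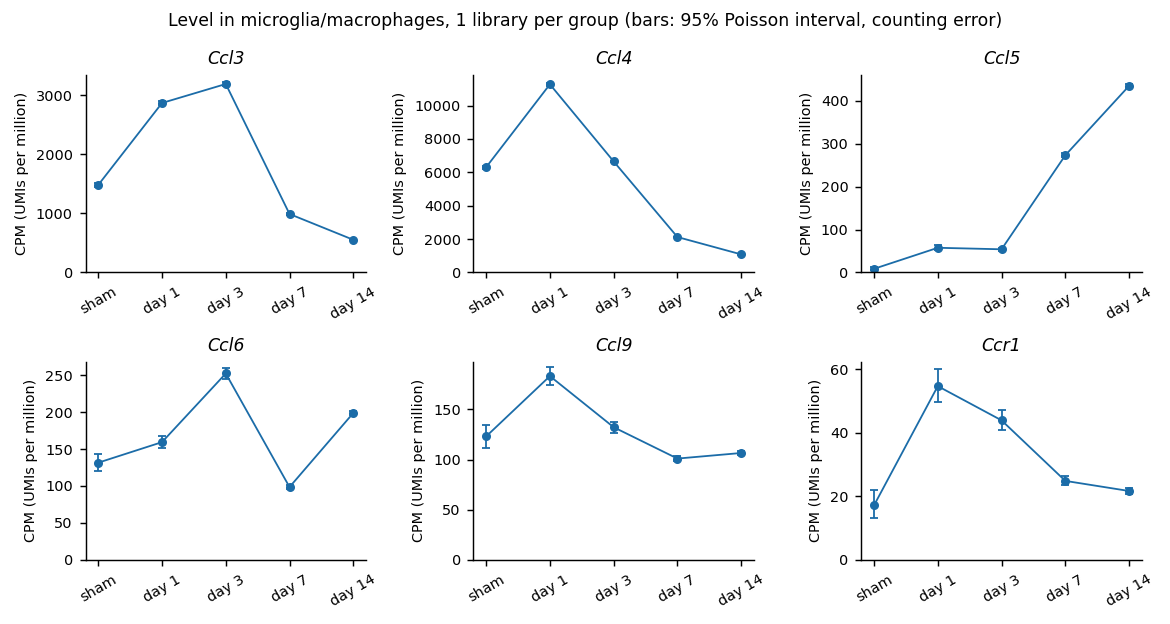
Level (CPM) of the 6 members in microglia/macrophages of the 5 libraries, from sham to day 14, with points for 1 library each and bars for the 95% Poisson interval. Ccl4 peaks at day 1 with 11274 CPM and Ccl3 at day 3 with 3194 CPM, while Ccl5 is highest at day 14 with 435 CPM.

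Against sham, a member was called at a difference of at least 2-fold where its mean level was at least 10 CPM, which all 6 members reached on each day. At day 1, 2 of 6 members were at least 2-fold higher and 0 were lower, where 7.99% of all 8738 measured genes were higher and 10.1% lower. These were Ccl5, at 57.4 CPM at day 1 and 8.42 CPM in sham (log2 ratio 2.77, interval 2.24 to 3.34), and Ccr1, at 54.6 CPM at day 1 and 17.1 CPM in sham (log2 ratio 1.67, interval 1.29 to 2.08). Ccl3 came close at 1.94-fold higher, and Ccl4 was 1.79-fold higher.

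At day 3, 3 of 6 members were at least 2-fold higher and 0 lower, against 10.0% of genes higher and 24.4% lower. Ccl3 was 2.15-fold higher (log2 ratio 1.11, interval 1.07 to 1.15), Ccl5 6.40-fold and Ccr1 2.56-fold. Ccl6 was 1.92-fold higher, with 252 CPM at day 3 and 132 CPM in sham. Ccl4 and Ccl9 were 1.06-fold and 1.07-fold higher than in sham.

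At day 7, Ccl5 was the 1 member at least 2-fold higher and Ccl4 the 1 member at least 2-fold lower, against 4.97% of genes higher and 15.2% lower. Ccl5 reached 273 CPM at day 7, with 8.42 CPM in sham, which is 32.4-fold. Ccl4 was 2.97-fold lower. By day 14, 1 member was higher and 2 were lower, against 6.77% of genes higher and 26.3% lower. Ccl5 was 51.6-fold higher at 435 CPM (log2 ratio 5.69, interval 5.18 to 6.25), from 32167 UMIs at day 14 and 31 UMIs in sham. Ccl4 was 5.83-fold lower and Ccl3 2.68-fold lower. The median of all measured genes lay at log2 ratios of -0.07, -0.35, -0.37 and -0.54 on days 1, 3, 7 and 14. Relative to that median Ccl3 at day 1 was higher by 1.02, Ccl6 by 1.29 at day 3 and by 1.14 at day 14, and Ccl3 at day 14 stood at -0.88 and was no longer called.

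The members differed in how many cells held them. With each cell thinned at random to 500 UMIs, Ccl4 was seen in 54.7% of sham microglia/macrophages and in 79.6%, 68.7%, 38.5% and 28.3% at days 1, 3, 7 and 14. Ccl3 was seen in 31.5% in sham and in 54.1%, 63.7%, 26.0% and 20.1% on the later days. Unthinned, 68.4% of day 14 cells and 39.2% of sham cells held a Ccl3 UMI, the reverse order of the levels. Ccl5 was seen in 664 of 6057 thinned cells at day 14 and in 10 of 4492 (0.223%) in sham, and Ccr1 in at most 2.42% in any library.

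Cells with a Ccl4 UMI held Ccl3 more often in every library. At day 3, 78.4% of thinned cells with Ccl4 also held Ccl3, and 31.6% of cells without Ccl4 did. In sham the shares were 42.7% with Ccl4 and 18.1% without it. Over 50 sums of a class in a library, the gene most like Ccl3 in level was Ccl4 (Pearson r = 0.953 of log2(CPM + 10), among 10406 genes ranked), followed by Slc15a3, Tlr2, Plek and Tnf at 0.917 to 0.907. Those most like Ccl4 after Ccl3 were Tnf, Atf3, Gm46224 and Slc15a3 at 0.911 to 0.874. The sums share libraries and depth, so these r values only describe likeness.

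The day 3 library held enough monocyte/macrophage-like cells (724) to set them beside its 2895 microglia-like cells, and the members split into opposite patterns. Ccl6, Ccl9 and Ccr1 were at least 2-fold higher in monocyte/macrophage-like cells, 3 of 6 members where 6.00% of 7568 genes were higher. Ccl6 stood at 691 CPM in monocyte/macrophage-like and 91.9 CPM in microglia-like cells (log2 ratio 2.91). Ccl9 stood at 291 CPM in monocyte/macrophage-like and 71.7 CPM in microglia-like cells (log2 ratio 2.02), and Ccr1 at 95.2 CPM and 16.2 CPM in the same order (log2 ratio 2.55). Ccl3 and Ccl4 were at least 2-fold lower, 2 of 6 members where 19.9% of genes were. Ccl3 stood at 787 CPM in monocyte/macrophage-like and 4338 CPM in microglia-like cells, and Ccl4 at 1387 CPM and 9078 CPM.

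Read in microglia-like cells alone, Ccr1 at day 3 did not stand above sham, with 16.2 CPM at day 3 and 16.4 CPM in sham. Ccl6 was likewise lower there, at 91.9 CPM at day 3 and 124 CPM in sham. At day 1 the higher Ccr1 level was present in microglia-like cells alone, with 49.3 CPM at day 1 and 16.4 CPM in sham. Ccl3 at day 3 was higher in microglia-like cells alone (log2 ratio 1.55) than in the joined cells (log2 ratio 1.11). Ccl4 in microglia-like cells alone was also above sham at day 3, with 9078 CPM at day 3 and 6324 CPM in sham. The unresolved clusters held 8 cells in sham and 51, 255, 940 and 2748 at days 1, 3, 7 and 14, so the joined levels of days 7 and 14 differed from those of microglia-like cells alone. Over sham in microglia-like cells alone, Ccl3 stood at log2 ratios of -0.46 at day 7 and -0.96 at day 14, and Ccl4 at -1.40 and -2.08. Ccr1 at day 14 stood at 7.19 CPM in microglia-like cells and at 16.4 CPM in those of sham (log2 ratio -1.19), while in the joined cells it was slightly above sham (0.34).

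**Figure D2:**
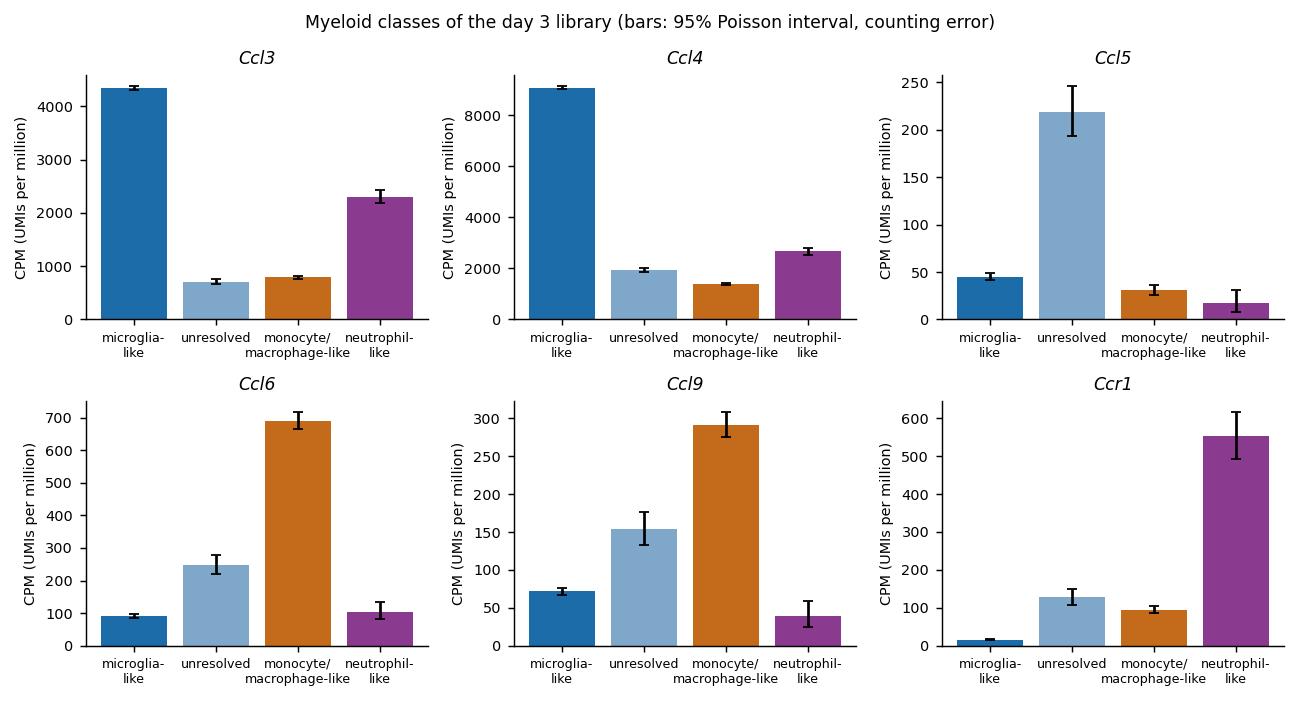
Level (CPM) of each member in 4 myeloid classes of the day 3 library: microglia-like, unresolved microglia or macrophage, monocyte/macrophage-like and neutrophil-like cells, with bars for the 95% Poisson interval. Ccl3 and Ccl4 are highest in microglia-like cells, Ccl6 and Ccl9 in monocyte/macrophage-like cells and Ccr1 in neutrophil-like cells.

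Neutrophil-like cells had the highest Ccr1 level of any class at days 1, 3, 7 and 14 and were a second class with high Ccl3 and Ccl4. Neutrophils are short-lived granulocytes that enter tissue early after injury. At day 1, 2 of 6 members were at least 2-fold higher in neutrophil-like cells than in microglia/macrophages, where 19.7% of genes were, and 2 were lower, where 32.0% were. Ccr1 was the most different, with 1171 CPM in neutrophil-like cells and 54.6 CPM in microglia/macrophages (log2 ratio 4.42). At days 3, 7 and 14 it stood at 552, 622 and 366 CPM in neutrophil-like cells and at 43.9, 24.8 and 21.6 CPM in microglia/macrophages. Ccr1 was seen in 44.7%, 28.2%, 27.1% and 23.2% of thinned neutrophil-like cells on these 4 days. In oligodendrocyte-like cells, which should lack it, the share was at most 0.259%. At day 1 the median depth was 857 UMIs in neutrophil-like and 2390 UMIs in oligodendrocyte-like cells.

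In spite of their number, 1.27% of the kept cells at day 1 and 4.26% at day 3, neutrophil-like cells held 27.3% of all Ccr1 UMIs at day 1 and 28.7% at day 3. Microglia/macrophages held 69.4% and 66.8% on the same days. The genes most like Ccr1 in level were Cd300ld, Clec4e, Clec4d, Trem1 and Rnf149 (r = 0.955 to 0.931). Trem1 was also a marker used to name neutrophil-like clusters.

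Ccl3 in neutrophil-like cells stood at 2801, 2302, 465 and 543 CPM at days 1, 3, 7 and 14, which was 97.5%, 72.1%, 47.0% and 98.1% of the microglia/macrophage level. The median of 9 abundant microglia genes in the same cells, a measure of free RNA taken up in droplets, was 6.13%, 24.6%, 28.0% and 18.5%, although single genes of the 9 reached up to 189%. Ccl4 stood at 6653, 2663, 961 and 1025 CPM in neutrophil-like cells. Ccl6 stood at 885, 105, 409 and 552 CPM there and at 159, 252, 98.5 and 199 CPM in microglia/macrophages, so the neutrophil-like level was the higher on days 1, 7 and 14 but not on day 3. Ccl9 stood at 46.6, 38.9, 26.1 and 123 CPM in neutrophil-like cells, from 41 UMIs or fewer a day. It was below the microglia/macrophage level at days 1, 3 and 7. At day 14 it was the highest of any class, close to the 107 CPM of microglia/macrophages and the 114 CPM of unresolved cells alone. That rank is not settled, since with doublets kept dendritic cell-like cells led at day 14, and with a mean over cells microglia/macrophages did.

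**Figure D3:**
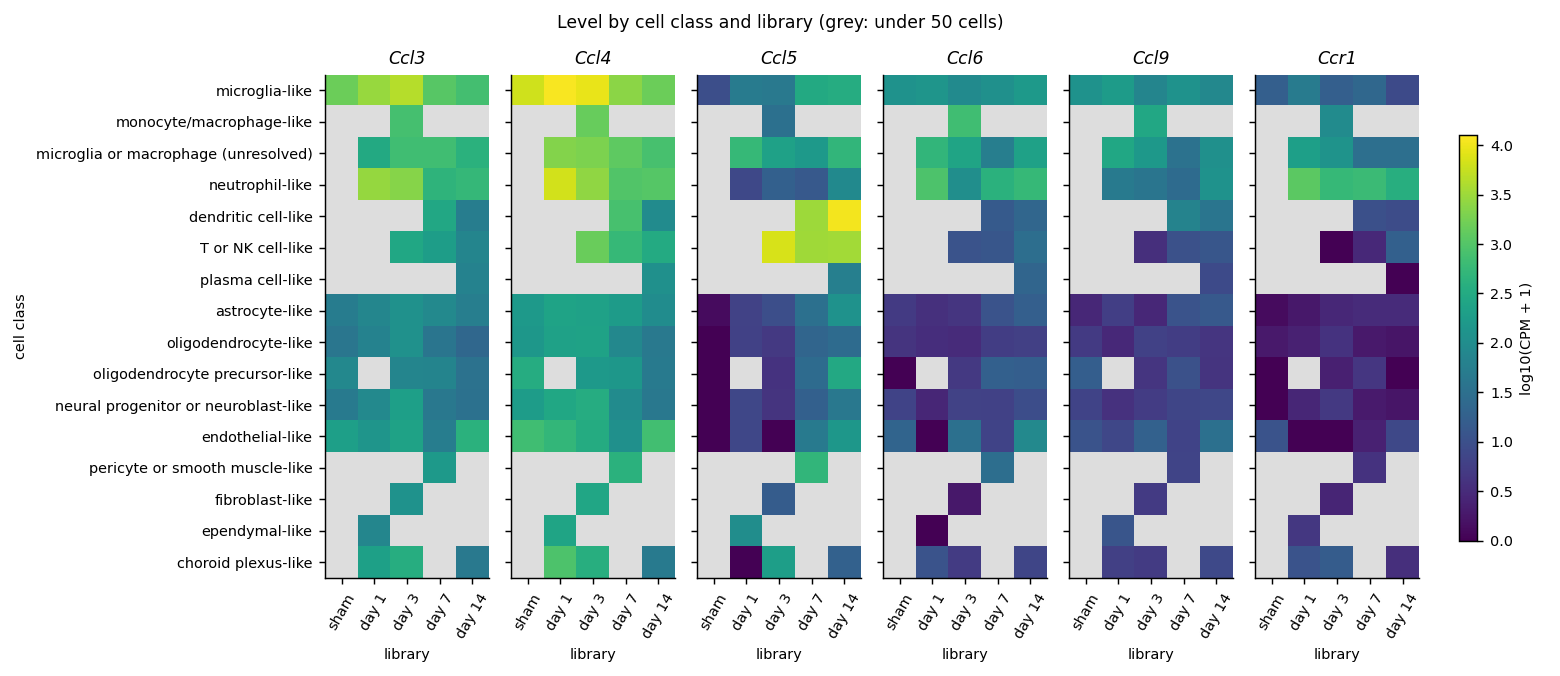
Level of each member, as log10(CPM + 1), by cell class (rows) and library (columns, sham to day 14), with classes of under 50 cells in grey. Ccl3 and Ccl4 are brightest in microglia-like and neutrophil-like cells, Ccl5 in T or NK cell-like and dendritic cell-like cells, and Ccr1 in neutrophil-like cells.

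Ccl5 was highest by level in T or NK cell-like and dendritic cell-like cells, while the more numerous microglia/macrophages held 18.7% to 61.0% of its UMIs. In T or NK cell-like cells it stood at 7069, 3265 and 3444 CPM at days 3, 7 and 14. Dendritic cell-like cells, which numbered 58 at day 7 and 248 at day 14, stood at 3147 and 10519 CPM. Their leading genes included Ccr7 and Ccl22, which mature dendritic cells express, and Ccr7 was also a marker used to name them. Their cluster passed 6 of 12 dendritic cell markers, and T or NK cell came second with a share of 0.37 of its markers. The part of T or NK content in their Ccl5 level was not tested. With at most 10% mitochondrial UMIs, T or NK cell-like cells had the highest Ccl5 level at day 14. The share of thinned cells with Ccl5 was 57.3%, 51.3% and 43.4% of T or NK cell-like cells at days 3, 7 and 14, and 51.7% and 85.5% of dendritic cell-like cells at days 7 and 14. In oligodendrocyte-like cells it was 0.259%, 0.808% and 1.32% at days 3, 7 and 14. At day 14 the median depth was 4394 UMIs in T or NK cell-like, 7158.5 in dendritic cell-like and 8984 in oligodendrocyte-like cells.

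Of all Ccl5 UMIs in sham, the 16 T or NK cell-like cells held 78.9% and the 4492 microglia/macrophages 18.7%. Microglia/macrophages held 41.0%, 21.6%, 61.0% and 35.9% of them at days 1, 3, 7 and 14. T or NK cell-like cells held 42.8%, 64.2%, 29.6% and 39.5% on those days, and dendritic cell-like cells held 22.4% at day 14. At day 1 the highest Ccl5 level among classes of at least 50 cells was 562 CPM in the 51 unresolved cells, and with these joined to microglia it was ependymal-like, with 102 CPM from 28 UMIs in 84 cells.

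**Figure D4:**
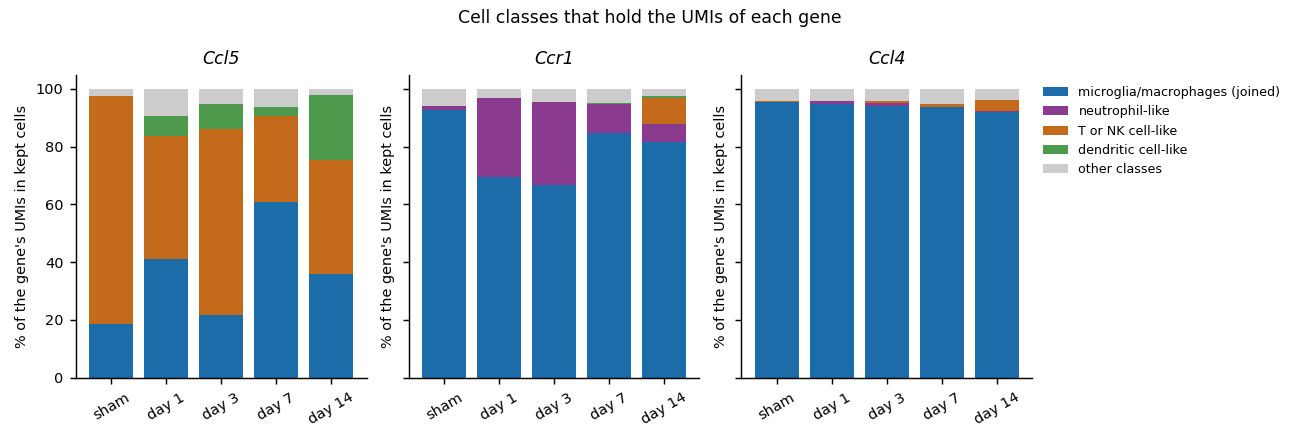
Percent of the UMIs of Ccl5, Ccr1 and Ccl4 held by microglia/macrophages, neutrophil-like, T or NK cell-like, dendritic cell-like and all other cells in each library from sham to day 14. Ccl5 is divided between 3 classes, neutrophil-like cells hold 27.3% and 28.7% of Ccr1 at days 1 and 3, and Ccl4 lies at 92.0% or more in microglia/macrophages.

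Among T or NK cell-like cells at days 7 and 14 and among the gates of at least 50 cells, Ccl5 was highest in those with Cd3 and Cd8 UMIs and no Cd4 UMI. The gate of cells with Ncr1 or Klrb1c and no Cd3 held too few cells for a level. These 446 cells at day 14 stood at 8722 CPM, with 1368 CPM in 616 cells with Cd3 and Cd4 UMIs and no Cd8. At day 7 the levels were 4813 CPM in 124 Cd8 cells and 2428 CPM in 86 Cd4 cells. Ccl4 followed the same order, with 698 CPM in Cd8 cells and 148 CPM in Cd4 cells at day 14. The genes most like Ccl5 in level over the 50 sums were Klrk1, an activating receptor of NK and Cd8 T cells, then AW112010, H2-Q7, Epsti1 and H2-Q6 (r = 0.856 to 0.840). Its r with the other members was at most 0.292.

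Within microglia/macrophages Ccl5 was uneven. At day 7 the cluster with leading genes Ccl12, Ifit2, Ccl4, Fcgr1 and Ifi204, of which Ifit2 and Ifi204 are interferon-induced, held 919 CPM in 379 cells, and the largest cluster, of 4497 cells, held 243 CPM. At day 3 the same cluster held 232 CPM in 159 cells, and the largest, of 2081 cells, held 38.5 CPM. A cluster led by Ccl8 and the MHC class II genes H2-Ab1 and H2-Aa, assigned to neither microglia nor macrophages, was slightly higher on that day, with 246 CPM in 235 cells. The members were left out of the genes used for clustering. The 50 cells with the most Ccl5 UMIs held 74.9%, 75.7%, 43.7% and 33.6% of the microglia/macrophage total at days 1, 3, 7 and 14. In sham, 15 cells held all of it. The highest count in 1 cell was 96 UMIs at day 3 and 1136 UMIs at day 14.

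Among unthinned microglia/macrophages, T or NK marker UMIs were more frequent in cells with Ccl5, and the part of depth in this was not tested. At day 14, 26.1% of microglia/macrophages with a Ccl5 UMI and 19.7% of those without one held a UMI of 8 T or NK genes, and the 19 T or NK markers summed to 137 CPM at day 14 and 6.79 CPM in sham. In cells with no UMI of those 8 genes or of 5 dendritic cell genes, Ccl5 stood at 380 CPM in 2608 cells at day 14. In sham it stood at 7.01 CPM in 3581 such cells, and at day 7 at 246 CPM. At day 14 a UMI of the 5 dendritic cell genes was held by 47.9% of cells with Ccl5 and 41.4% of those without. Cells chosen in this way can hold free Ccl5 RNA of other classes, and its part was not tested.

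Among other chemokine receptors, Ccr3, Ccr1l1 and the decoy receptor Ackr2 were below 10 CPM in microglia/macrophages of every library. Ackr1, which binds chemokines without signalling and marks venular endothelium, stood in endothelial-like cells at 38.6, 77.5, 44.1 and 31.7 CPM at days 1, 3, 7 and 14 and at 10.2 CPM in sham from 1 UMI. Of 16 genes of signalling below chemokine receptors, 0 were at least 2-fold higher in injured than sham microglia/macrophages on any day, and 6, 9, 8 and 8 were at least 2-fold lower at days 1, 3, 7 and 14, when 10.1%, 24.4%, 15.2% and 26.3% of all genes were. The lower genes included Pik3r5, a regulatory subunit of the phosphoinositide 3-kinase used by G protein-coupled receptors (log2 ratio -2.06 at day 3), and Arrb1, an arrestin that uncouples such receptors (-2.13 at day 3).

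Ccl3 levels in other brain cells were read beside the free RNA there. In oligodendrocyte-like cells Ccl3 was at 2.69% of its microglia/macrophage level in sham and at 2.27%, 3.73%, 3.91% and 4.06% at days 1, 3, 7 and 14. The 9 abundant microglia genes were at a median of 2.93% in sham and 1.73%, 3.80%, 4.47% and 3.28% on those days, close to the Ccl3 values. In endothelial-like cells Ccl3 was at 13.7% of the microglia/macrophage level in sham and at 4.70%, 7.28%, 5.33% and 75.7% at days 1, 3, 7 and 14, where the 9 genes were at a median of 14.7% in sham and 4.56%, 6.86%, 5.01% and 48.1%. Of thinned oligodendrocyte-like cells 5.18% at day 3 and 1.75% in sham held Ccl3, at median depths of 2940.5 UMIs at day 3 and 1518 UMIs in sham. Microglia/macrophages had median depths of 3670 UMIs at day 3 and 726 UMIs in sham. Over the 30 pairs of a member and a library, microglia/macrophages held the highest level in 18, neutrophil-like cells in 8, T or NK cell-like cells in 2 and dendritic and ependymal-like cells in 1 each.

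Immediate early genes are transcription factors and other genes that cells switch on within minutes of stimulation, also during dissociation of tissue, and the sham library was rich in them. Among 500 UMIs per cell, the 25 genes of an immediate early list (19) and a heat shock list (6) took a mean of 22.0 UMIs in sham microglia/macrophages and 11.8, 9.43, 7.19 and 5.49 at days 1, 3, 7 and 14. Of the 19 immediate early genes 6, 14, 12 and 17 were at least 2-fold lower at days 1, 3, 7 and 14 than in sham, when 10.1%, 24.4%, 15.2% and 26.3% of all genes were, and 0 were higher. Of the 6 heat shock genes 5, 6, 6 and 6 were lower.

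Cells of each library were ranked by list UMIs and split into 3 equal parts. Between the upper part of sham microglia/macrophages (median 32 list UMIs) and the lower part (median 12), 0 of 5 measured members differed by 2-fold (Ccl5 had 0 UMIs in the upper and 6 in the lower part and was not measured), while 3.23% of the other 8791 genes were at least 2-fold higher and 3.80% lower. Ccl3 stood at 1506 CPM in the upper and 1221 CPM in the lower part (log2 ratio 0.30, interval 0.18 to 0.43). Ccl4 stood at 6631 CPM in the upper and 5387 CPM in the lower part (log2 ratio 0.30, interval 0.24 to 0.36). Ccl6 leaned the other way, with 100 CPM in the upper and 152 CPM in the lower part (log2 ratio -0.60, interval -1.04 to -0.17).

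In sham the level of Ccl3 climbed over the lowest bins of list UMIs and then stayed level. Cells with 0 to 4 list UMIs stood at 444 CPM (108 cells), with 5 to 9 at 939 CPM, with 10 to 14 at 1386 CPM, with 15 to 19 at 1519 CPM, with 20 to 29 at 1562 CPM and with 30 or more at 1446 CPM. Ccl4 stood at 2981 CPM in cells with 0 to 4 and at 7149 CPM in cells with 15 to 19. Of 16 NF-kB genes 15 were measured in sham, and 9 were at least 2-fold higher in the upper part, among them Nfkbia, which encodes an inhibitor of NF-kB (log2 ratio 1.35), and Il1b (2.14). Tnf, which encodes an inflammatory cytokine, was higher by 0.83.

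The same split was made in each injured library, where the parts span other ranges of list UMIs (medians 14 and 1 at day 7), so its ratios are not comparable with those of sham and the difference was not tested. At day 7, Ccl3 stood at 1627 CPM in the upper and 288 CPM in the lower part (5.66-fold) and Ccl4 at 3798 CPM in the upper and 572 CPM in the lower part (log2 ratio 2.73). They were the 2 members at least 2-fold higher, against 7.78% of genes, and Ccl5 was the 1 member at least 2-fold lower, against 2.26%. At day 14 Ccl3, Ccl4 and Ccr1 were higher, 3 of 6 against 8.74% of genes, and Ccl5 lower, against 2.26%. At days 1 and 3, 0 members were at least 2-fold higher (4.57% and 7.99% of genes) and Ccl5 was lower (3.51% and 4.82% of genes). The log2 ratio of Ccl3 was 0.89 at day 1, 0.94 at day 3 and 1.01 at day 14. Ccl5 went against the list in all 4 injured libraries, with log2 ratios of -2.07, -1.65, -2.09 and -1.09 at days 1, 3, 7 and 14.

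**Figure D5:**
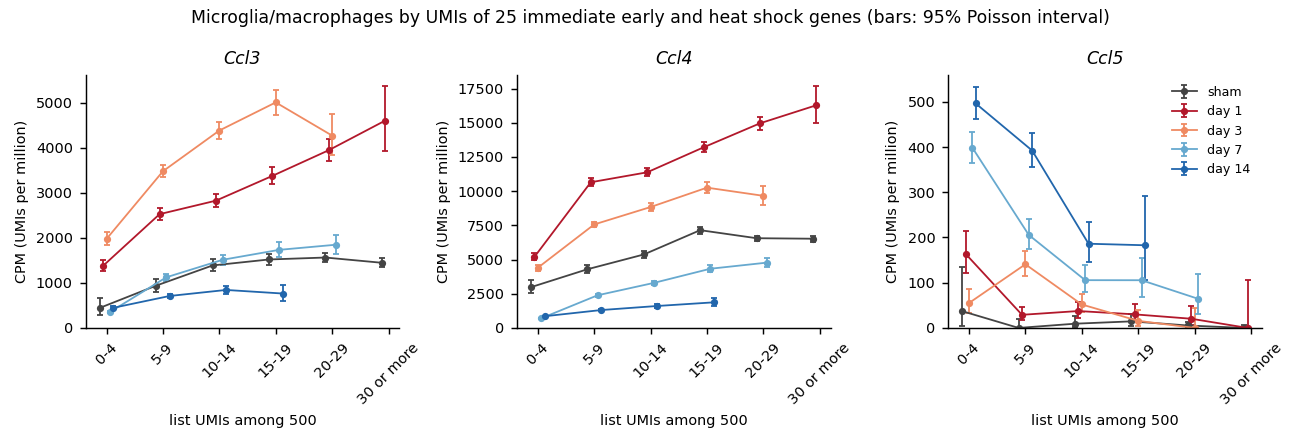
Level (CPM) of Ccl3, Ccl4 and Ccl5 in microglia/macrophages binned by UMIs of 25 immediate early and heat shock genes among 500 UMIs per cell, 1 line per library, bins of at least 50 cells, with bars for the 95% Poisson interval. Ccl3 in sham levels off near 1500 CPM above 15 list UMIs, while at day 1 it is higher in each later bin.

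Sham cells were then weighted to the spread of list UMIs of each injured library. Ccl3, at log2 ratios of -0.61 at day 7 and -1.24 at day 14 over sham in thinned cells, moved to 0.10 and -0.37. Ccl4 stayed below sham, with -1.59 at day 7 and -2.44 at day 14 before weighting and -1.04 and -1.77 after it. At days 1 and 3 the ratios of Ccl3 became larger, with 1.26 and 1.78 after weighting and 0.97 and 1.37 before it. For Ccl5 at day 14 the ratio was 4.37 after weighting and 5.93 before it, and for Ccr1 at day 14 it was 1.05 after weighting and 0.044 before it. The sham levels behind these ratios moved from 6.68 to 19.7 CPM for Ccl5 and from 18.3 to 9.10 CPM for Ccr1. Only 37 thinned sham cells held Ccr1, and 15 sham cells held Ccl5 before thinning, so both shifts rest on few UMIs. Cells with 0 to 4 list UMIs numbered 2705 of 5945 at day 7 and 2938 of 6057 at day 14, and sham has 108 such cells to stand for them.

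Sham microglia/macrophages with a Ccl3 or Ccl4 UMI made up 62.9% of cells. They held a mean of 22.4 list UMIs, and cells without either held 21.3. The 12 genes with the highest ratio between them, of 1724 ranked, were Trib1, Gadd45b, Tnf, AU020206, Adamts1, Tpi1, Tnfrsf1a, Wdr83os, Il1b, Egr2, Gpr84 and Cd83, with log2 ratios of 0.86 to 0.52. Egr2 was the 1 of them on the immediate early list. Tnf stood at 205 CPM in cells with and 119 CPM in cells without Ccl3 or Ccl4, and its log2 ratio in the other libraries was 1.47, 1.91, 1.55 and 1.76 at days 1, 3, 7 and 14.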

How the data were processed

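Per the file headers, the authors made the deposited UMI counts with Cell Ranger. Each value is a whole UMI count of a gene in a barcode. Per the submitters' processing notes, STAR 2.5.37 and Seurat 3.2.0 were used, with GRCm38 (mm10) as the genome. Each group was 1 library (10x 3′ v3 chemistry). Totals lay between 11279455 UMIs (sham) and 129161094 UMIs (day 14).

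A barcode passed with 500 or more UMIs, 200 or more genes and no more than 20% of UMIs from mitochondria. Scrublet, as run in scanpy 1.11.5, marked doublets, which were dropped. At day 7 its automatic threshold marked under 0.5% of barcodes, so the median threshold of the other 4 libraries was used, which marked 3.76%. Leiden clusters (resolution 1, 30 principal components, 15 neighbours) were built without the 6 members and without immediate early and heat shock genes. Clusters were named from marker genes, at least 3 each, and names stand for likeness. The members, gene lists and markers were chosen with earlier results of these data known. The genes named are the members, the genes of the fixed lists, the 5 genes most like each member (of genes reaching 50 CPM) and the 12 of highest ratio beside Ccl3 or Ccl4 (of genes reaching 100 CPM).

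CPM is the UMI sum of a gene over a class of 1 library, scaled by the UMI total of that class. Intervals are 95%: exact Poisson for levels, conditional binomial for ratios, Clopper-Pearson for shares. They hold no error other than counting. A count of 0 was set against a floor of 3 UMIs in a ratio. Calls used 2-fold and a mean of at least 10 CPM. The ratios and their intervals, not the calls, were checked on simulated sums with known folds and counting error only. Alternatives changed the filters, clustering, class, scaling (TMM in edgeR 4.0.16), list and ranking. Another gene of the fixed lists is not reported here. All 55450 gene IDs matched GENCODE mouse release 21.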

Additional observations from a re-analysis of the deposited data

Results flagged for a closer look

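Ccl3 moved in opposite directions in 2 classes of the same day 14 to sham comparison. In endothelial-like cells it was higher, with 419 CPM in 65 cells at day 14 and 203 CPM in 79 cells in sham (log2 ratio 1.04, interval 0.40 to 1.76). In microglia/macrophages it was lower, with 553 CPM at day 14 and 1483 CPM in sham (log2 ratio -1.42). The difference between the classes was not tested, since each group is 1 library. The 9 abundant microglia genes in endothelial-like cells stood at a median of 48.1% of their microglia/macrophage level at day 14 and 14.7% in sham, and Ccl3 at 75.7% at day 14 and 13.7% in sham. Their part in the Ccl3 value was not tested. The sham value in endothelial-like cells rests on 20 UMIs, and the median depth of these cells was 20101 UMIs at day 14 and 929 UMIs in sham.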

How the results depend on the processing

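Of 106 recomputed counts of members, 101 stayed within 1.5 times the value reported. With TMM scaling, 3 members were at least 2-fold higher and 1 lower at day 14 than in sham, and relative to the median of all measured genes 2 were higher and 1 lower. With at least 1000 UMIs per cell, 1 member, Ccr1, reached 2-fold (log2 ratio 1) in the upper part of sham cells by list UMIs. That value rests on few UMIs, since without this limit Ccr1 held 14 UMIs in the upper and 11 in the lower part. Ccl6 (log2 ratio -1.26) and Ccl9 (-1.15) were past 2-fold lower in the upper part with at least 1000 UMIs per cell. In microglia-like clusters alone Ccr1 at day 3 turned to a log2 ratio of -0.015 over sham, since monocyte/macrophage-like and unresolved cells were left out, Ccr1 at day 14 went to -1.19, Ccl6 at day 3 to -0.43, Ccl9 at day 3 to -0.76 and Ccl3 at day 14 to -0.96. Ccr1 at day 14, at 0.34 as reported, was also below sham with doublets kept, at most 10% mitochondrial UMIs, resolution 2, the members kept for clustering and clusters named against all other cells (-0.57 to -0.19), so its direction is not settled. Of 330 single values 230 stayed within their counting interval, 99 moved and 1 past 2-fold (Ccr1 at day 3) turned its sign. In all, 17 of the 330 changed sign. Naming clusters against all other cells was added after the data were seen. Under 7 alternatives the number of member and library pairs led by microglia/macrophages was 17 or 18, and the leading class was the same in 25 to 30 of 30. No paired analysis was possible because each group is 1 library. Depth limits Ccr1 and Ccl5 in sham, which rest on 63 and 31 UMIs.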

Other observations

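Other CC chemokines of microglia/macrophages had their own time courses. Ccl12, a monocyte chemoattractant, stood at 431 CPM in sham, 4924 at day 1, 313 at day 3, 652 at day 7 and 567 at day 14. Ccl2, the main ligand of Ccr2, stood at 573, 1380, 486, 149 and 167 CPM over the same 5 libraries. Ccl7 was at 362 CPM at day 1 and 6.52 CPM in sham, and Ccl8 was below 20 CPM until day 7 and at 370 CPM at day 14. Of 14 other CC ligands 4 were measured at day 1, and 3 of these were at least 2-fold higher than in sham, where 7.99% of all genes were. The unresolved clusters, which include a cluster led by Ccl8, held 8 cells in sham and 2748 at day 14. The make-up of the joined cells thus changed, and its part in these levels was not tested.

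Among 15 other chemokine receptors 4 were measured at day 14 in microglia/macrophages. Ccr2 (log2 ratio 2.97) and Cxcr4 (2.68) were at least 2-fold higher than in sham, where 6.77% of all genes were. Cx3cr1 (-1.71) and Ccrl2 (-1.28) were at least 2-fold lower, where 26.3% of all genes were. The change in make-up of the joined cells applies to these values too. Cxcr4 in neutrophil-like cells stood at 512, 812, 252 and 474 CPM at days 1, 3, 7 and 14.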
